A study of Homo sapiens with 9 samples.

Results

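The comparison was of THP-1 cells given PKM2-knockdown ectosomes with THP-1 cells given none. Members were the 3 knockdown-ectosome libraries and the 3 control libraries, 6 of the 9 libraries of the series, chosen by their group labels. Every gene of the deposited count table was compared, and 18437 of 30000 rows had enough reads to be tested. The question was which changes of the THP-1 transcriptome remained, and which appeared, when the donor cells of the ectosomes had lost PKM2. THP-1 is a human monocytic leukaemia line, and Huh7, named in the title as the source of the ectosomes, is a human hepatoma line. The control group carried the shRNA tag Ctrl and had no ectosomes, the knockdown group received ectosomes under the tag PKM2_KD, and a further group of 3 libraries received ectosomes under the tag Scramble. The knockdown ectosomes were read here as those of Huh7 cells expressing an shRNA against PKM2, and the scramble ectosomes as those of Huh7 cells with a scramble shRNA. The sources used here give neither dose, time nor preparation of the ectosomes, nor the efficiency of the knockdown or the number of donor clones. Nothing in the labels says whether the replicates came from separate cultures, so the p-values measure no more than the spread of these libraries, and that spread may be technical.

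Ectosomes bud as vesicles from the cell surface and carry proteins, lipids and RNA of the donor cell to others. Monocytes that take up vesicles or meet microbial products switch on NF-kB, which drives cytokines and chemokines, and often an interferon response, in which STAT factors and interferon regulatory factors drive antiviral genes. As they turn into macrophages they stop dividing, lose the granule proteases of myeloid progenitors and gain scavenger receptors, lysosomes and antigen-presenting molecules. PKM2 is an isoform of pyruvate kinase, the enzyme of the last step of glycolysis, and has also been described as acting on transcription factors such as STAT3.

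Levels are counts scaled by TMM to a common library size (CPM), given in the order of replicates 1, 2 and 3, so that the last of 3 control values is always control replicate 3. That library stood apart from the other controls, with 230 genes at least 2-fold above and 1020 at least 2-fold below the mean of control replicates 1 and 2, where replicate 2 against 1 gave 36 and 33. Of the genes tested with and without it, 2466 rose and 1262 fell at least 2-fold with knockdown ectosomes in a fit that did not use it. Control replicate 3 lay farther from the knockdown level than the other controls in 73.8% of these rises and 50.2% of these falls. Over all genes tested, control replicate 3 lay below the mean of the other controls in 51.3% and above it in 48.4%. Its value is therefore printed beside the others wherever control levels of single libraries are given. The fold change from the fit without control replicate 3 is added for a part of the genes. For some genes only the fold change, or the level with ectosomes, is printed. Libraries held 17744587 to 23864381 counts, and mitochondrially encoded genes took 4.27% to 4.90% of them. All 12 markers listed for the monocytic line passed the filter on low counts, and their summed level was 2294 to 3032 CPM in control and 5296 to 5719 CPM in knockdown libraries. Of these markers 5 rose, ITGB2, LAPTM5, PTPRC, SPI1 and TYROBP, and 4 fell, LYZ, CEBPA, FCGR1A and CSF3R, with ITGB2 going from a mean of 636 to 1879 and LAPTM5 from 402 to 1344 CPM.

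Knockdown ectosomes changed the transcript level of most genes that were tested. In edgeR's quasi-likelihood test with Benjamini-Hochberg adjustment, the source of each adjusted p below unless another tool is named, 4978 genes were higher than in control at an adjusted p under 0.05 (27.0% of those tested) and 4926 were lower (26.7%). Of these, 2682 rose and 1331 fell at least 2-fold. Without control replicate 3 the calls were 5542 higher and 5455 lower, and 9471 genes were called in the same direction in both fits, 0 in opposite directions. In 30.7% of the genes tested every knockdown library lay above every control library, and in 29.8% every one lay below. These shares are the background against which the counts of each gene list below are to be read. RNA was pooled over cells, so fewer cells expressing a gene and less RNA per cell cannot be told apart.

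PKM itself (chromosome 15, 72199029 to 72231822, minus strand, in GENCODE 29 on GRCh38) is given first, although its level in THP-1 cells is no check of a knockdown made in the donor cells, and reads of its isoforms were not separated. PKM stood at 789, 734 and 428 CPM in control and 2181, 2304 and 2454 CPM with knockdown ectosomes, and rose 3.56-fold (log2 change 1.83 with SE 0.19, adjusted p = 1.70e-05), or 3.03-fold without control replicate 3. With scramble ectosomes it stood at 3376, 3573 and 3553 CPM, above all knockdown libraries, a difference whose call (adjusted p = 0.0145) ended without knockdown replicate 1 (adjusted p = 0.0544) and when library totals alone set the scaling (0.0752). STAT3, a transcription factor of cytokine signalling, was at 138, 128 and 94.01 CPM in control, 172, 182 and 172 CPM with knockdown and 322, 327 and 320.1 CPM with scramble ectosomes. The 3 groups did not overlap, and the knockdown level was 1.46-fold (adjusted p = 0.00327) above control and 1.84-fold (adjusted p = 0.000106) below scramble. CCL1, a chemokine that attracts monocytes and T cells, had 0 reads in the controls and stood at 1.03, 1.22 and 2.78 CPM with knockdown ectosomes, at least 32.97-fold above control (adjusted p = 0.000528, the bound taking 3 counts over the control group). With scramble ectosomes CCL1 was at 0.226, 0.105 and 0 CPM, 14.1-fold (adjusted p = 0.001501) below the knockdown level, or 29.4-fold without scramble replicate 1, which held 5 of the 7 scramble reads. CCR8, its receptor, is not analysed here.

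The largest rises with knockdown ectosomes were of secreted and signalling proteins that control cells hardly expressed. IGFBP5 (chromosome 2, 216672105 to 216695525, minus strand), which binds insulin-like growth factors, went from 0.0533, 0 and 0.0552 CPM to 174, 191 and 198 CPM. As the controls held only 2 reads of IGFBP5, its ratio of 5626 has an exact 95% interval from 1557 to 46460.0, covering counting error only. The fitted IGFBP5 change was 4749-fold (adjusted p = 6.75e-10), or 3097-fold without control replicate 2. CXCL13 (chromosome 4, 77511753 to 77611834, plus strand), the chemokine that draws B cells into lymphoid follicles, was at 0.3196, 0.344 and 0.0552 CPM in control and 456, 456 and 491 CPM with knockdown ectosomes, 1834-fold (log2 change 10.84 with SE 0.22, adjusted p = 6.75e-10), and 1375-fold without control replicate 3. With scramble ectosomes CXCL13 reached 2.12, 2.42 and 1.87 CPM, so its knockdown libraries lay 219-fold (adjusted p = 4.15e-09) above the scramble group. For both genes every ectosome library of either kind lay above every control library, and IGFBP5 stood at 18.96, 23.6 and 20.7 CPM with scramble ectosomes. RGS1, which damps signalling by chemokine receptors, rose from 0.852, 0.861 and 0.1104 to 522, 508 and 507 CPM, 808-fold (log2 change 9.66 with SE 0.31, adjusted p = 8.02e-09), and stood at 32.4, 43.1 and 44.04 CPM with scramble ectosomes. GPRIN3, an inducer of neurite outgrowth regulated by G proteins, followed the same order, with 0.213, 0.258 and 0.0552 CPM in control, 8.57, 10.4 and 7.72 CPM with scramble and 72.5, 70.3 and 52.7 CPM with knockdown ectosomes, a rise of 346-fold (adjusted p = 8.25e-09).

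Other large rises included cytokines and receptors of immune cells. Control libraries held 7.94, 6.76 and 0.276 CPM of IL1B (chromosome 2, 112829751 to 112836903, minus strand), the inflammatory cytokine interleukin 1 beta, the least in control replicate 3, and knockdown libraries 2101, 1998 and 1975 CPM, a rise of 399.7-fold (log2 change 8.64 with SE 0.66, adjusted p = 2.07e-06), or 276-fold without that library. Its level with scramble ectosomes was 1843, 2087 and 2061 CPM, overlapping the knockdown level. CCR7, which guides dendritic cells and lymphocytes to lymph nodes, rose from 0.213, 0.517 and 0.386 to 65.2, 67.8 and 67.6 CPM, 172-fold (log2 change 7.43 with SE 0.16, adjusted p = 6.75e-10), with control replicate 3 between the other controls. The other 4 of the 10 genes with the largest rises stayed below 1 CPM in every control library. ITGB8, an integrin subunit that activates TGF-beta, was at 42.1, 38.2 and 37.2 CPM with knockdown ectosomes, a rise of 208-fold (adjusted p = 1.67e-08) that became 447-fold without control replicate 2. INHBA, the beta A subunit of activin, reached 46.4, 39.6 and 39.4 CPM, 176-fold (adjusted p = 6.20e-08) above control, or 691-fold without control replicate 2, and lay 2.001-fold (adjusted p = 0.000816) below its scramble level. XIRP1, an actin-binding protein, rose 150.1-fold (adjusted p = 5.31e-08), or 246-fold without control replicate 1, and GLIS3, a zinc finger transcription factor, rose 144-fold (adjusted p = 1.79e-08). INHBA, ITGB8 and GLIS3 overlap genes on the opposite strand, and the strand setting of the counting is not given in the sources used here.

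**Figure D1:**
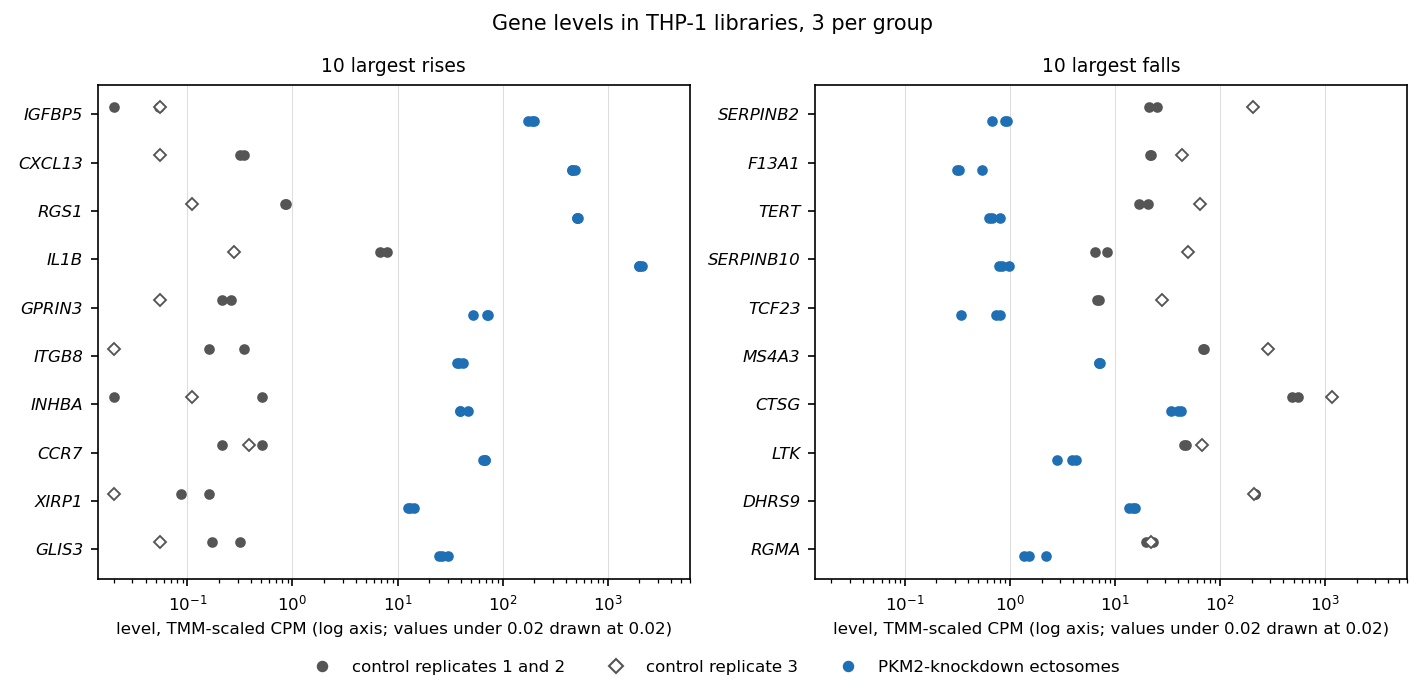
Levels in CPM (log axis, values under 0.02 drawn at 0.02) of the 10 genes with the largest rises (left) and the 10 with the largest falls (right), 1 point per library, with controls in grey, control replicate 3 as an open diamond and knockdown ectosomes in blue. Control and knockdown points are far apart for every gene, and control replicate 3 is the lowest control for IL1B and RGS1 and the highest for SERPINB2, TERT and MS4A3.

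Several of the 10 genes with the largest falls were far higher in control replicate 3 than in the other controls. SERPINB2 (chromosome 18, 63871692 to 63903890, plus strand), an inhibitor of plasminogen activators, stood at 21.2, 25.01 and 204 CPM in control and 0.932, 0.891 and 0.682 CPM with knockdown ectosomes. Its fall of 98.6-fold (log2 change -6.62 with SE 0.99, adjusted p = 0.000245) became 27.5-fold without control replicate 3, and its annotation overlaps that of SERPINB10 on the same strand, so reads of the pair cannot be fully told apart. SERPINB10 fell 24.4-fold (adjusted p = 0.000635), or 8.55-fold without control replicate 3. TERT, the catalytic subunit of telomerase, went from 20.7, 17.1 and 64.9 to 0.638, 0.797 and 0.682 CPM, 47.9-fold (adjusted p = 1.74e-05) down, or 26.5-fold without that library. MS4A3, a marker of granulocyte and monocyte progenitors, dropped from 68.8, 70.0 and 283 to 7.07, 7.13 and 7.08 CPM (19.8-fold, and 9.8-fold without it), and TCF23, a transcription factor, fell 21.8-fold (adjusted p = 0.000171), or 10.99-fold without it. For these 5 genes control replicate 3 was the highest control by at least 3-fold, and the knockdown libraries lay below every control.

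In the other large falls control replicate 3 lay closer to the other controls, though it was still the highest control for F13A1, LTK and CTSG. DHRS9, a retinol dehydrogenase, was at 213, 217 and 209.7 CPM in control and 15.6, 14.7 and 13.5 CPM with knockdown ectosomes, a fall of 14.6-fold (log2 change -3.87 with SE 0.10, adjusted p = 2.86e-09) that was the same size, 14.7-fold, without control replicate 3. RGMA, a membrane-anchored co-receptor of bone morphogenetic proteins, fell from 23.01, 19.6 and 21.8 to 2.21, 1.36 and 1.52 CPM, 12.6-fold (adjusted p = 1.95e-07). Both genes were lower still with scramble ectosomes, at 5.14, 4.69 and 6.04 CPM for DHRS9 and 0.496, 0.263 and 0.479 CPM for RGMA. F13A1, the A subunit of coagulation factor XIII, fell from 22, 21.6 and 43.7 to 0.5399, 0.328 and 0.315 CPM, 72.4-fold (adjusted p = 5.60e-07). LTK, a receptor tyrosine kinase, fell from 45.4, 47.6 and 67.6 to 3.88, 4.22 and 2.78 CPM, 14.7-fold (adjusted p = 1.26e-07), and lay below its scramble level of 7.18, 7.58 and 7.76 CPM. CTSG, the neutrophil protease cathepsin G, dropped from 549, 479 and 1166 to 34.2, 39.9 and 42.5 CPM, 18.8-fold (adjusted p = 1.60e-06), or 13.3-fold without control replicate 3.

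Of the 26 gene lists examined, that of cytokines and chemokines had the largest median change. Of 34 cytokines and chemokines, 29 had enough reads to be tested, and 28 of them rose with knockdown ectosomes, none fell, with a median log2 change of 4.67 where the median of all genes was -0.01. The remaining gene was CSF1, the macrophage growth factor, at 10.6, 10.9 and 1.88 CPM in control and 12.8, 12.3 and 11.5 CPM with knockdown ectosomes (adjusted p = 0.227). Controls held 0 reads of CCL1 and of CSF2, a growth factor of granulocytes and macrophages that rose at least 31.6-fold, and the median was also 4.67 with these at their lower bounds. Control replicate 3 lay -0.94 (median log2) from the other controls for this list, and without it the count was 28 and the median 4.24. With scramble ectosomes 24 rose (background 34.6% higher and 33.2% lower) with a median of 4.25. Between the 2 kinds of ectosomes 11 were higher and 11 lower with the knockdown (background 31.4% higher and 30.3% lower).

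Single chemokines differed in which ectosomes gave the higher level. CXCL8, the main neutrophil chemokine, was at 19.4, 25.1 and 3.59 CPM in control, 4048, 4339 and 4504 CPM with scramble and 990.1, 856 and 847 CPM with knockdown ectosomes, so it rose 55.6-fold (adjusted p = 7.24e-06) over control but lay 4.79-fold (adjusted p = 0.00111) below scramble. CXCL3, of the same family, was at 0.746, 0.603 and 0 CPM in control, 228, 238 and 255 CPM with scramble and 10.7, 10.3 and 11.3 CPM with knockdown ectosomes. CXCL3 rose 22.8-fold (adjusted p = 2.23e-06) against control and lay 22.4-fold (adjusted p = 1.18e-07) below scramble. The groups did not overlap for either gene. CCL5, which attracts T cells and monocytes, was instead highest with knockdown ectosomes, at 104, 99.4 and 36.4 CPM in control, 175, 199 and 205 CPM with scramble and 954, 996 and 956 CPM with knockdown ectosomes. CCL5 rose 12.1-fold (adjusted p = 6.26e-06) against control and lay 5.01-fold (adjusted p = 6.72e-05) above scramble. CCL2, the monocyte chemokine, rose from 1.598, 2.63 and 0.1104 to 89.7, 92.2 and 113 CPM, 64.5-fold (adjusted p = 1.09e-06), or 113-fold without control replicate 2, and exceeded its scramble level of 16.7, 19.5 and 18.4 CPM by 5.39-fold (adjusted p = 7.29e-05). CCL20 rose from 0.906, 1.12 and 0.331 to 76.6, 65.4 and 74.2 CPM, 88.3-fold (adjusted p = 1.62e-08). CCL22, which recruits regulatory T cells, rose from 3.46, 3.06 and 2.21 to 33.96, 37.6 and 39.2 CPM, 12.6-fold (adjusted p = 1.85e-08). CXCL8, CXCL3, CCL5, CCL2, CSF1, CSF2 and TNF were singled out after their values were seen. In the controls TNF, the cytokine tumour necrosis factor, was already expressed, at 205, 202 and 28.4 CPM with control replicate 3 far below the others, and reached 545, 559.6 and 530.0 CPM, 3.76-fold (adjusted p = 0.00921) higher, or 2.67-fold without control replicate 3.

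NF-kB is a family of dimeric transcription factors held inactive by inhibitors that it then induces itself. All 21 listed subunits, inhibitors and targets rose with knockdown ectosomes, with a median log2 change of 2.59, and in 21 every knockdown library lay above every control library. Control replicate 3 lay -1.45 from the other controls (median log2), and without it 20 rose with a median of 2.23. The exception was NFKBIB, an inhibitor, at 34.3, 33.1 and 25.8 CPM in control and 37.01, 36.01 and 42.3 CPM with knockdown ectosomes, whose call (adjusted p = 0.04095) ended without control replicate 3 (0.0532), without knockdown replicate 1 (0.0658) or 3 (0.147) and without any 1 scramble library (up to 0.0597). Scramble ectosomes raised 21 with a median of 2.47. The knockdown level was higher than the scramble level for 4 and lower for 7, a count of lower genes that became 13 without control replicate 3 and 4 without knockdown replicate 1. The letters GGANTTTCC, a kappa-B motif, were searched on both strands of the 250 bases before the RefSeq start sites (GRCh38.p14) and found for 9 of the 18 members that have a promoter entry (50%), against 1.45% of all 35116 promoter entries. Here and for the motifs below, members were counted over all their start sites, but the background over single entries. Members with several start sites thus had more chances of a match. None of the motif matches overlapped a match of another motif searched here, and a match is a description of the letters, not of binding. Windows of 80 bases around a match are shown for the subunit genes NFKB1 and NFKB2, the inhibitor gene NFKBIA and the adhesion molecule gene ICAM1, 5′ to 3′ on the strand of the gene, with the motif, in either orientation, in capitals.
NFKB1: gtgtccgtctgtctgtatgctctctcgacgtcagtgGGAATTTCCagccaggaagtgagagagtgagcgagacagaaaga
NFKB2: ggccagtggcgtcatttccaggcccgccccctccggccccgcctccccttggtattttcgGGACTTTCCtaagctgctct
NFKBIA: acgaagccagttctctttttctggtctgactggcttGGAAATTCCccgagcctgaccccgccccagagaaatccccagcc
ICAM1: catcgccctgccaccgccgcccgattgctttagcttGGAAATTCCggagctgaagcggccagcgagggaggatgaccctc

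The NFKB1 window lies at chr4:102501275-102501354 on the plus strand, with its match 48 bases before the start, and that of NFKB2 at chr10:102395625-102395704 on the plus strand, 20 bases before it. The window of NFKBIA lies at chr14:35404787-35404866 on the minus strand and holds 1 of the 2 matches of its promoter, and that of ICAM1 at chr19:10270898-10270977 on the plus strand. The 3 groups did not overlap for NFKB1, NFKB2 or NFKBIA, with knockdown between control and scramble. NFKB1 stood at 72.2, 66.9 and 46.9 CPM in control, 276, 265 and 254 CPM with knockdown and 462, 457 and 464 CPM with scramble ectosomes. NFKB1 rose 4.28-fold (log2 change 2.10 with SE 0.14, adjusted p = 7.57e-07) against control and lay 1.74-fold (adjusted p = 0.000366) below scramble. NFKB2 rose from 135, 124 and 44.3 to 596, 609.5 and 624 CPM, 6.02-fold (adjusted p = 5.93e-05), or 4.69-fold without control replicate 3, and stood at 961, 913 and 952 CPM with scramble ectosomes. NFKBIA, which holds NF-kB in the cytosol, rose from 125, 113 and 38.9 to 335, 349.9 and 354 CPM, 3.76-fold (adjusted p = 0.000519), and stood at 484, 514 and 533 CPM with scramble ectosomes. ICAM1, which binds leukocyte integrins, was at 28.8, 30.5 and 1.38 CPM in control, 369.8, 397 and 383 CPM with knockdown and 619, 608 and 588 CPM with scramble ectosomes, a rise of 18.8-fold (adjusted p = 0.000388) that was 12.9-fold without control replicate 3, the lowest control by far. The difference between the 2 kinds of ectosomes missed the threshold for NFKB2 (adjusted p = 0.0897), NFKBIA (0.139) and ICAM1 (0.3504), but passed it without control replicate 3 (adjusted p = 2.07e-09, 3.28e-08 and 9.47e-10). SOD2, a mitochondrial superoxide dismutase, rose from 74.6, 76.9 and 55.04 to 598, 551 and 528 CPM, 8.11-fold (adjusted p = 3.28e-08). TNIP1, which restrains NF-kB, rose from 161, 144 and 129 to 525, 557 and 552 CPM, 3.76-fold (adjusted p = 9.04e-08), both above scramble as well (adjusted p = 5.54e-05 and 0.000436). Both SOD2 and TNIP1 thus ranked the 2 kinds of ectosomes in the opposite order from NFKB1. BCL2A1, which protects myeloid cells from apoptosis, went from 1.23, 1.08 and 0.221 to 34.01, 31.4 and 31.4 CPM, 37.3-fold (adjusted p = 1.62e-07).

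The type I interferon response rose with knockdown ectosomes in 29 of 30 listed genes, with a median log2 change of 2.47, and the remaining gene, MX1, which traps viral capsids, had 2.66, 2.45 and 1.77 CPM in control and 3.29, 3.47 and 3.36 CPM with knockdown ectosomes (adjusted p = 0.0618, and 0.0449 without scramble replicate 1). It was also the list for which control replicate 3 stood farthest below the other controls, with a median log2 difference of -2.28. Without that library 29 members rose and the median was 2.04. With scramble ectosomes 27 rose and 1, MX1, fell, with a median of 2.60. Between the ectosomes 6 were higher and 2 lower with the knockdown, counts that became 12 and 11 without control replicate 3. The core of the interferon-stimulated response element, GAAANNGAA, was found on either strand before the start of 16 of the 21 members with a promoter entry (76.2%), against 6.88% of all promoter entries. Windows around matches are shown for 3 antiviral effectors of different kinds.
ISG15: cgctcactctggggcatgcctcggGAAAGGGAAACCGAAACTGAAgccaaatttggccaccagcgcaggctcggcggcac
IFIT1: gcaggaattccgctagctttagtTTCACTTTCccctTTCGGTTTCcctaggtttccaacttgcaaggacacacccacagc
IFITM3: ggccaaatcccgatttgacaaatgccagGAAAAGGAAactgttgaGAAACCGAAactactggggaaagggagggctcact

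The ISG15 window lies at chr1:1013360-1013439 on the plus strand, where 3 overlapping matches form the capitals, that of IFIT1 at chr10:89392485-89392564 on the plus strand, where the capitals are the reverse complement of the motif, and that of IFITM3 at chr11:320861-320940 on the minus strand, the latter 2 with 2 matches each. ISG15, a ubiquitin-like modifier, was at 33.9, 31.1 and 8.83 CPM in control and 134, 165 and 149 CPM with knockdown ectosomes, a rise of 6.04-fold (adjusted p = 0.000144) that was 4.59-fold without control replicate 3. IFIT1, which binds viral RNA, rose from 10.02, 10.1 and 0.442 to 61.1, 57.7 and 61.9 CPM, 8.66-fold (adjusted p = 0.000644), or 5.98-fold without it. IFITM3, which blocks virus entry, rose from 51.2, 48.9 and 6.84 to 150.3, 154 and 169 CPM, 4.41-fold (adjusted p = 0.00412), or 3.15-fold without it. Knockdown libraries lay above all controls for each of the 3, and control replicate 3 was several times below the other controls. With scramble ectosomes IFIT1 stood at 53.3, 62.1 and 63.9 CPM and IFITM3 at 145, 173 and 177 CPM, overlapping the knockdown libraries. ISG15 stood at 219, 238 and 251 CPM with scramble ectosomes, a difference from the knockdown that missed the threshold (adjusted p = 0.108) but passed it without control replicate 3 (adjusted p = 7.14e-08) and in a fit of the 2 ectosome groups alone (8.76e-08). DDX58, the RNA sensor RIG-I, rose from 15.1, 15.3 and 7.18 to 53.5, 59.7 and 55.1 CPM, 4.46-fold (adjusted p = 1.53e-05). IFIH1, the sensor MDA5, rose from 20.4, 18.2 and 7.78 to 60.4, 59.7 and 56.9 CPM, 3.81-fold (adjusted p = 9.03e-05). The sensors parted from each other against scramble ectosomes, DDX58 being 1.68-fold (adjusted p = 0.00808) higher and IFIH1 1.79-fold (adjusted p = 0.00964) lower with the knockdown. SIGLEC1, a sialic acid receptor of macrophages, was at 17.4, 15.5 and 0.773 CPM in control, 10.4, 10.4 and 11.4 CPM with scramble and 54.8, 58.5 and 53.5 CPM with knockdown ectosomes. SIGLEC1 rose 4.91-fold (adjusted p = 0.00705) against control, or 3.38-fold without control replicate 3, and lay 5.18-fold (adjusted p = 0.00498) above scramble. ISG15, IFIT1, IFITM3, SIGLEC1, MX1, NFKB2, NFKBIA, NFKBIB and ICAM1 were singled out after their values were seen.

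**Figure D2:**
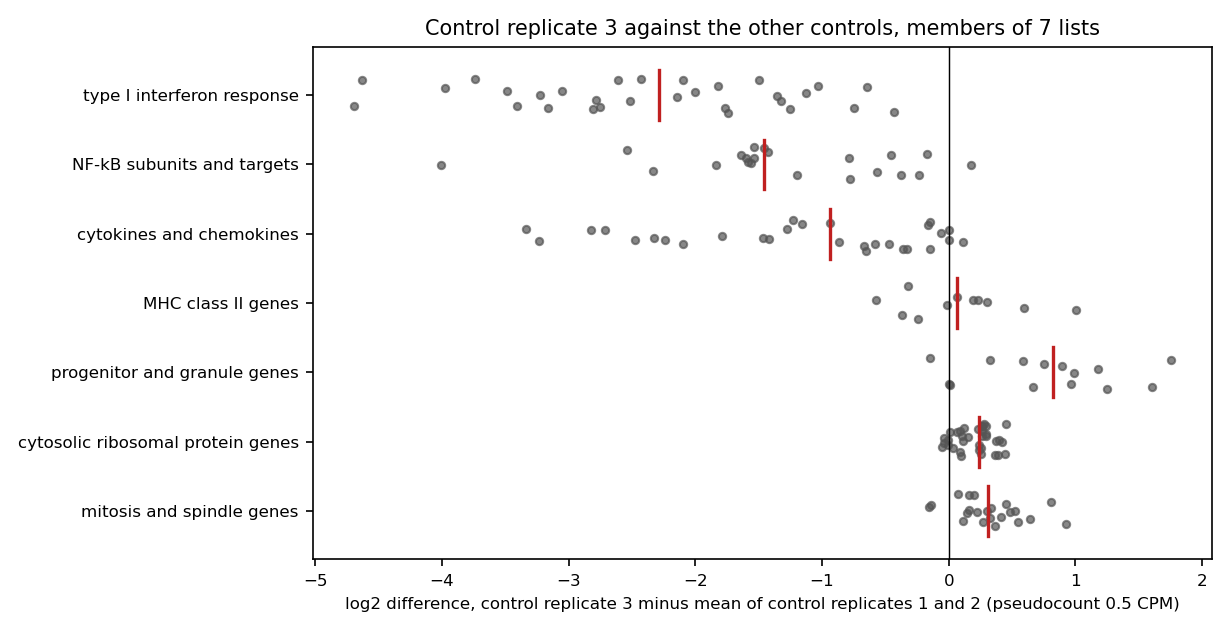
Difference of control replicate 3 from the mean of control replicates 1 and 2 (horizontal axis, log2 of CPM with 0.5 CPM added), 1 point per tested gene of 7 lists, with the median of each list as a red line. Interferon, NF-kB and cytokine genes lie mostly below 0, with medians of -2.28, -1.45 and -0.94, whereas ribosomal and mitosis genes lie near 0, with medians of 0.24 and 0.31, and progenitor genes above it at 0.82.

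Genes of antigen presentation rose with the knockdown ectosomes and mostly exceeded their scramble level. MHC class II molecules show peptides to helper T cells, and 10 of 11 tested genes of the list rose, HLA-DMB (adjusted p = 0.292) being the exception, with a median log2 change of 1.07 (10 and 1.38 without control replicate 3). Scramble ectosomes raised 2 and lowered 4, with a median of -0.11, and all 11 were higher with knockdown than with scramble ectosomes, though HLA-DMB, at under 1 CPM throughout, lost this call without any 1 scramble library or without knockdown replicate 1 or 2 (adjusted p up to 0.0899). HLA-DRA, the alpha chain of the DR molecule, was at 3.62, 4.65 and 4.802 CPM in control, 10.8, 10.8 and 10.8 CPM with scramble and 37.4, 38.4 and 44.5 CPM with knockdown ectosomes. HLA-DRA rose 9.17-fold (log2 change 3.20 with SE 0.13, adjusted p = 2.63e-08) against control. HLA-DPA1 was at 1.06, 0.818 and 0.718 CPM in control, 1.62, 1.05 and 1.102 CPM with scramble and 7.61, 8.39 and 10.2 CPM with knockdown ectosomes, and HLA-DPB1, which overlaps it on the opposite strand, at 0.266, 0.215 and 0.276 CPM in control, 0.406, 0.474 and 0.383 CPM with scramble and 3.14, 3.75 and 5.09 CPM with knockdown ectosomes. HLA-DPA1 rose 10.01-fold (adjusted p = 1.19e-06) and HLA-DPB1 15.6-fold (adjusted p = 1.84e-06), with no overlap of knockdown libraries with the others, while scramble against control missed the threshold (adjusted p = 0.0935 and 0.135). HLA-DQA1 rose from 0.746, 0.5596 and 0.276 to 7.36, 7.03 and 6.71 CPM, 13.1-fold (adjusted p = 1.10e-06), or 10.8-fold without control replicate 3. CD74, the chaperone that guards the peptide groove, was at 182, 164 and 134 CPM in control, 109, 119 and 119 CPM with scramble and 200.1, 219 and 224 CPM with knockdown ectosomes. CD74 rose 1.34-fold (adjusted p = 0.006898) against control. CIITA, the master regulator of the class II genes, was at 2.82, 3.099 and 6.46 CPM in control, 1.72, 2.05 and 1.68 CPM with scramble and 8.59, 5.81 and 8.02 CPM with knockdown ectosomes, with control replicate 3 inside the knockdown range. Its rise of 1.82-fold (adjusted p = 0.0264) did not last without control replicate 1 (adjusted p = 0.0844), control replicate 2 (0.0909), knockdown replicate 1 (0.0942) or knockdown replicate 3 (0.0769), nor in a fit of the 2 groups alone (0.0579), whereas it was 2.502-fold without control replicate 3 (adjusted p = 6.00e-06). CIITA, CD74 and HLA-DMB were singled out after their values were seen.

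The 12 costimulatory and checkpoint genes were mostly of ligands, which set whether a T cell responds. Of these 12 genes 10 rose with a median log2 change of 2.65, and scramble ectosomes raised 8 with a median of 1.97. The 10 include IDO1, an enzyme and not a ligand, of which the controls held 0 reads. Control replicate 3 lay -0.96 from the other controls, and without it 11 rose with a median of 2.22. The exceptions were CD70, at 239.9, 223 and 136 CPM in control and 243, 272 and 270.4 CPM with knockdown ectosomes (adjusted p = 0.07395, but 0.0246 without control replicate 3 and 0.0229 without control replicate 1), and VSIR, an inhibitory ligand (adjusted p = 0.852). CD86 went from 3.68, 2.58 and 0.442 to 45.01, 50.5 and 45.6 CPM, 20.8-fold (adjusted p = 4.47e-06). CD80, the other ligand of CD28, rose from 1.23, 0.646 and 0 to 22.2, 21.8 and 19.6 CPM, 33.3-fold (adjusted p = 3.74e-06), or 57.97-fold without control replicate 1. ICOSLG, the ligand of ICOS, rose from 11.3, 10.2 and 4.36 to 93.5, 96.8 and 95.95 CPM, 11.02-fold (adjusted p = 1.33e-06). CD274, the checkpoint ligand PD-L1, rose from 0.479, 0.947 and 0.166 to 13.9, 12.5 and 13.7 CPM, 23.6-fold (adjusted p = 7.12e-07), or 40.3-fold without control replicate 2, and remained 1.67-fold (adjusted p = 0.00895) below its scramble level of 23.8, 22.5 and 20.4 CPM. None of the knockdown libraries overlapped the controls for these 4 genes, and CD70 and VSIR were picked after their values were seen.

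Markers of macrophage differentiation rose in 13 of 22 tested genes and fell in 1, FCGR1A, with a median log2 change of 1.05, and 2 fell without control replicate 3, the other being LPL, a lipase (adjusted p = 0.0216). With scramble ectosomes 9 rose and 6 fell (median 0.45), and 16 were higher and 1 lower with knockdown than with scramble ectosomes (median 1.85). CSF1R, the receptor for the macrophage growth factor CSF1, was at 36.5, 33.9 and 35.99 CPM in control, 77.6, 96.99 and 80.3 CPM with scramble and 333, 356 and 363 CPM with knockdown ectosomes. CSF1R rose 9.88-fold (log2 change 3.31 with SE 0.10, adjusted p = 6.15e-09) against control, with control replicate 3 between the others. SPP1, the secreted phosphoprotein osteopontin, rose from 4.21, 4.35 and 0.386 to 282, 287 and 279.9 CPM, 92.6-fold (adjusted p = 1.16e-06), or 65.8-fold without control replicate 3. GPNMB, a lysosomal glycoprotein of lipid-laden macrophages, rose from 10.3, 10.8 and 2.54 to 146, 153 and 136 CPM, 18.2-fold (adjusted p = 5.19e-06), and was at 35.1, 45.02 and 42.8 CPM with scramble ectosomes. Both SPP1 and GPNMB were higher with knockdown than with scramble ectosomes (adjusted p = 4.98e-05 and 0.000508). LGALS3, the lectin galectin 3, rose from 21.9, 20.1 and 17.8 to 101, 104 and 109 CPM, 5.25-fold (adjusted p = 1.87e-08), and stood at 117, 117 and 127 CPM with scramble ectosomes. TREM2, a lipid-sensing receptor, was at 6.71, 6.41 and 4.86 CPM in control, 0.722, 0.843 and 0.623 CPM with scramble and 7.46, 6.66 and 8.13 CPM with knockdown ectosomes (adjusted p against control = 0.144 with the knockdown and 4.09e-07 with scramble). CHI3L1, a chitinase-like lectin, was at 328, 328 and 817 CPM in control, 45.7, 51.97 and 48.98 CPM with scramble and 448, 471 and 488 CPM with knockdown ectosomes (adjusted p = 0.863 with the knockdown and 4.65e-06 with scramble). Scramble ectosomes thus lowered both genes, the knockdown libraries overlapped the controls, and without control replicate 3 CHI3L1 rose 1.43-fold (adjusted p = 8.91e-07). LPL, TREM2 and CHI3L1 were picked after their values were seen. FCGR1A, the high-affinity IgG receptor, fell from 69.5, 77.5 and 66.1 to 40.9, 39.5 and 43.2 CPM, 1.73-fold (adjusted p = 2.29e-05), and stood at 14.04, 15.3 and 14.3 CPM with scramble ectosomes.

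**Figure D3:**
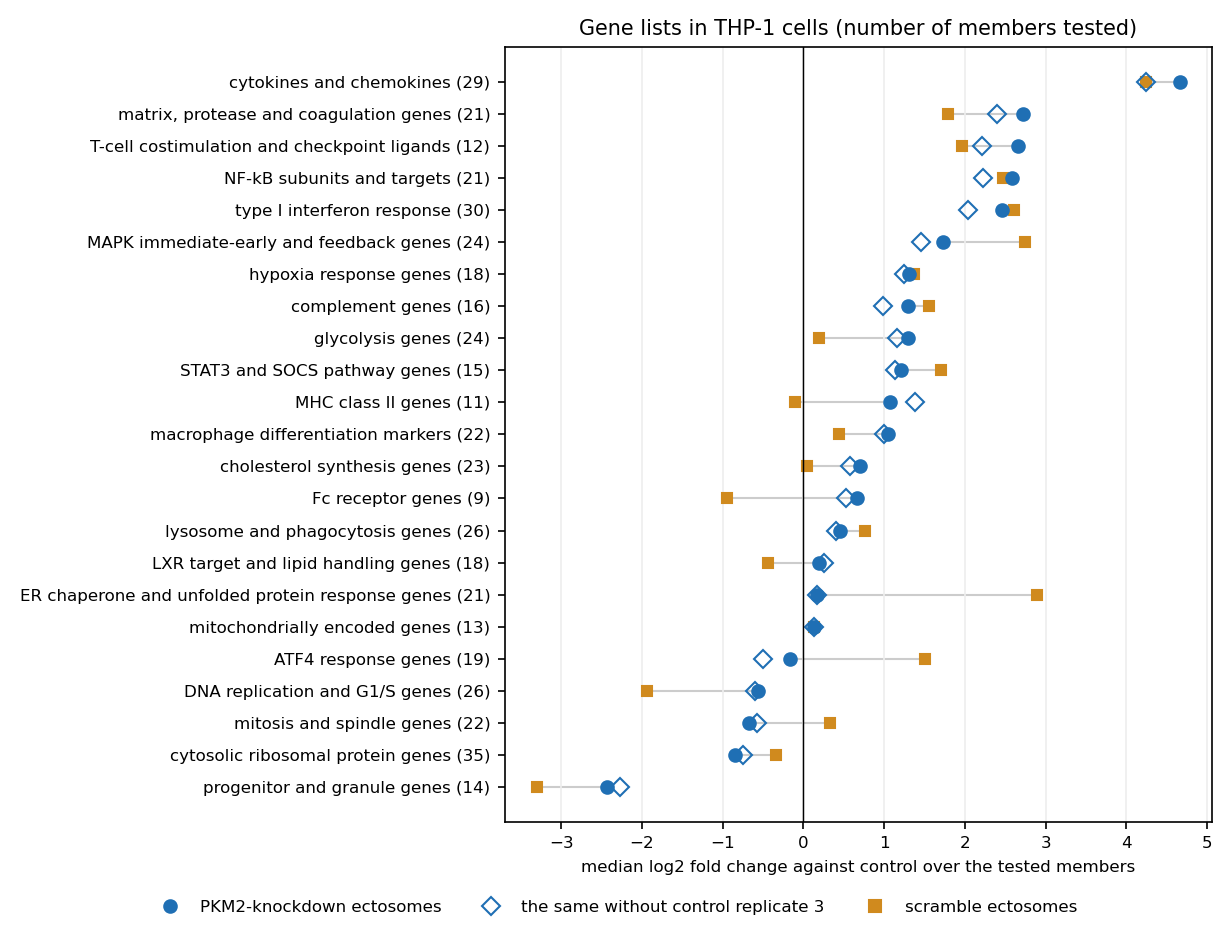
Median log2 fold change of the tested members of each gene list with knockdown ectosomes against control, with the median from the fit without control replicate 3 and that of scramble ectosomes against control beside it. Cytokine, NF-kB and interferon genes have medians above 2 with both kinds of ectosomes, while ER chaperone and ATF4 response genes have medians of 0.17 and -0.17 with the knockdown and 2.90 and 1.5 with scramble.

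Receptors and effectors of uptake changed unevenly. Of 9 Fc receptor genes 5 rose and 1, FCGR1A, fell, and of 16 complement genes 12 rose and 3 fell (C1S, CFD and CD55), with medians of 0.66 and 1.30 (0.53 and 0.98 without control replicate 3). C3, the central complement protein, went from 23.9, 23.6 and 5.91 CPM in control to 1089, 1109 and 1068 CPM with knockdown ectosomes, 60.8-fold (log2 change 5.93 with SE 0.42, adjusted p = 1.34e-06), or 45.7-fold without control replicate 3, and was at 78.5, 73.8 and 76.5 CPM with scramble ectosomes. All knockdown libraries of C3 lay 14.3-fold (adjusted p = 9.34e-06) above the scramble group. C1S, a protease of the classical pathway, fell from 2.88, 3.19 and 3.698 to 0.442, 0.281 and 0.262 CPM, 9.72-fold (adjusted p = 6.18e-06), and CFD, the protease factor D, 1.81-fold (adjusted p = 0.000554). CD55, which protects cells from complement, fell 1.37-fold (adjusted p = 0.0204), a call that ended without control replicate 1 (adjusted p = 0.0675) or 2 (0.0715) and without knockdown replicate 2 (0.0839) or 3 (0.0595), and in a fit of the 2 groups alone (0.0567). CFD and CD55 were picked after their values were seen. C1QC, a chain of C1q, had 2 reads in the controls and 1.28, 1.17 and 1.62 CPM with knockdown ectosomes, a ratio of 40.6 with an exact 95% interval from 10.9 to 340.5. The C1QC reads were in control replicate 2, and without it the fitted rise moved from 34.7- to 217-fold. FCAR, the IgA receptor, rose from 2.29, 1.72 and 0.386 to 14.9, 13.6 and 14.1 CPM, 9.53-fold (adjusted p = 1.28e-05), and lay 2.801-fold (adjusted p = 0.000416) below scramble. FCGR2C, a low-affinity IgG receptor gene nearly identical in part to FCGR2B and FCGR2A, so that reads may be misassigned, was at 5.43, 5.47 and 0.994 CPM in control, 0.587, 0.632 and 0.383 CPM with scramble and 36.8, 43.6 and 33.1 CPM with knockdown ectosomes. FCGR2C rose 9.399-fold (adjusted p = 5.83e-05) against control.

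Among lysosome and phagocytosis genes 21 of 26 rose and 1 fell, with a median log2 change of 0.45. The gene that fell was LAMP1, a lysosomal membrane protein picked after its values were seen, from 207, 186 and 199.8 to 122, 129 and 133 CPM, 1.54-fold (adjusted p = 4.52e-05). CYBB, the catalytic subunit of the phagocyte NADPH oxidase, rose from 59.8, 58.2 and 32.5 to 376, 371 and 387 CPM, 7.53-fold (log2 change 2.91 with SE 0.20, adjusted p = 9.99e-07), and exceeded its scramble level of 123, 151 and 137 CPM. TFEB, the transcription factor of lysosome genes, rose from 28.1, 26.7 and 20.8 to 76.8, 90.3 and 106 CPM, 3.61-fold (adjusted p = 1.73e-06). CTSD, the protease cathepsin D, rose from 34.1, 29.5 and 38.6 to 77.5, 88.4 and 97.8 CPM, 2.58-fold (adjusted p = 5.35e-06).

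Glycolysis genes rose together with the knockdown ectosomes. Of 24 genes 21 rose and 3 fell, with a median log2 change of 1.29, and 1.16 without control replicate 3. With scramble ectosomes 10 rose and 5 fell (8 fell without control replicate 3), with a median of 0.19, and 17 were higher and 3 lower with knockdown than with scramble ectosomes. Those that fell were the hexokinase gene HK3 (4.07-fold, or 2.69-fold without control replicate 3), the lactate dehydrogenase gene LDHB (2.07-fold) and the lactate carrier gene SLC16A1 (1.47-fold), named after their values were seen. HK1, a hexokinase, which starts the pathway, was at 13.4, 12.6 and 12.1 CPM in control, 13.9, 14.3 and 17.01 CPM with scramble and 53.99, 56.1 and 58.5 CPM with knockdown ectosomes. HK1 rose 4.42-fold (log2 change 2.15 with SE 0.10, adjusted p = 7.92e-08) against control and lay 3.72-fold (adjusted p = 1.31e-07) above scramble. ENO2, an enolase chosen after its values were seen, was at 5.59, 5.25 and 1.38 CPM in control, 5.1, 10.9 and 7.33 CPM with scramble and 62.7, 61.2 and 61.1 CPM with knockdown ectosomes. ENO2 rose 14.9-fold (adjusted p = 1.20e-05) against control. In both genes the knockdown libraries stood clear of all others. PFKFB3, which makes the activator of phosphofructokinase, rose with both, from 51.6, 47.8 and 38.2 CPM to 361, 349 and 327 CPM with knockdown and 368, 386 and 382 CPM with scramble ectosomes. PFKFB3 rose 7.53-fold (adjusted p = 1.93e-08) against control with the knockdown. The glucose carrier SLC2A1 rose from 225, 203 and 183 to 685, 754 and 981 CPM, 3.96-fold (adjusted p = 2.05e-06). The lactate exporter SLC16A3 rose from 315, 259.7 and 175 to 1159, 1297 and 1321 CPM, 5.04-fold (adjusted p = 2.04e-06), and lay 1.53-fold (adjusted p = 0.00887) above scramble.

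Of 18 tested hypoxia response genes 15 rose and 1 fell (2 without knockdown replicate 3), EGLN1, an oxygen sensor, by 1.66-fold, with medians of 1.30 with knockdown and 1.37 with scramble ectosomes. HIF1A, the oxygen-regulated transcription factor, rose from 92.6, 101 and 85.8 to 188, 175 and 151 CPM, 1.84-fold (adjusted p = 2.90e-05), below its scramble level of 335, 339 and 330.5 CPM. NDRG1, a stress-induced growth regulator, was at 229.8, 204 and 71.98 CPM in control, 87.9, 125 and 111 CPM with scramble and 779, 814 and 846 CPM with knockdown ectosomes. NDRG1 rose 4.82-fold (adjusted p = 0.000225) against control, or 3.75-fold without control replicate 3, and lay 7.52-fold (adjusted p = 3.52e-05) above scramble. VEGFA, the angiogenic factor, rose from 492, 500.4 and 165 to 1718, 1799 and 1548 CPM, 4.37-fold (adjusted p = 0.000259), and stood at 1886, 1915 and 1928 CPM with scramble ectosomes, a difference that missed the threshold (adjusted p = 0.638) but passed it without control replicate 3 (adjusted p = 0.00847) and in a fit of the 2 ectosome groups alone (0.0159). NDRG1, VEGFA and EGLN1 were singled out after their values were seen. ADM, the vasodilator peptide adrenomedullin, rose 27.6-fold (adjusted p = 2.22e-05), to 27.8, 28.6 and 30.99 CPM, ERO1A, an oxidase of the endoplasmic reticulum, 2.44-fold (adjusted p = 2.61e-07), and P4HA2, a collagen prolyl hydroxylase, 5.199-fold (adjusted p = 2.67e-05).

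Cholesterol synthesis genes, which SREBP factors switch on when sterols are low, rose in 18 of 23 cases and fell in 1, that of PMVK, a kinase of the pathway named after its values were seen, with a median of 0.71 (0.58 without control replicate 3). With scramble ectosomes 8 rose and 6 fell (11 fell without control replicate 3), and 15 were higher and 2 lower with knockdown than with scramble ectosomes (4 lower without control replicate 3). INSIG1, the sterol sensor that restrains SREBP, was at 338, 337 and 235 CPM in control, 304, 342 and 347 CPM with scramble and 846, 859.7 and 731 CPM with knockdown ectosomes. INSIG1 rose 2.67-fold (log2 change 1.42 with SE 0.14, adjusted p = 1.24e-05) against control and lay 2.45-fold (adjusted p = 1.65e-05) above scramble. Every knockdown library lay above all others. SQLE, squalene epoxidase, rose 2.13-fold (adjusted p = 1.07e-05), to 401, 396 and 363 CPM, below its scramble level of 594, 604 and 622 CPM, and the sterol carrier STARD4 rose 1.92-fold (adjusted p = 4.10e-06). The sterol regulatory letters TCACNCCAC were found in the promoter entries of 1 of 18 members (5.6%) and in 0.883% of all entries. Of 18 LXR targets and lipid handling genes 8 rose and 3 fell, CPT1A, PDK4 and MYLIP. ABCA1, which exports cholesterol, rose from 18.4, 18.4 and 26.6 to 132, 122 and 110.5 CPM, 5.76-fold (adjusted p = 3.05e-07), with control replicate 3 the highest control. PLIN2, the coat protein of lipid droplets, rose from 44.4, 42.6 and 25.3 CPM in control, 3.75-fold (adjusted p = 2.49e-05), or 3.23-fold without control replicate 3. PPARD, a fatty acid receptor, rose from 222.5, 205 and 92.2 CPM in control, 5.07-fold (adjusted p = 2.76e-05), or 4.1-fold without control replicate 3. CPT1A, which admits fatty acids to mitochondria, instead fell from 99.1, 94.6 and 108 to 33.8, 37.6 and 35.02 CPM, 2.83-fold (adjusted p = 1.70e-07). PDK4, a kinase that shuts pyruvate dehydrogenase, fell from 1.598, 1.507 and 0.607 to 0.0982, 0.422 and 0.105 CPM. Its fall was 5.73-fold (adjusted p = 0.00543), or 11.6-fold without knockdown replicate 2, and rests on only 13 reads over the knockdown libraries. MYLIP, which degrades the LDL receptor, fell 1.35-fold (adjusted p = 0.0124), a call lost without knockdown replicate 1 (adjusted p = 0.0552). PDK4 and MYLIP were picked after their values were seen.

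Genes of the unfolded protein response and of the ATF4 response changed in both directions with knockdown ectosomes and mostly rose with scramble ectosomes. Of 21 chaperones and unfolded protein response genes of the endoplasmic reticulum, 8 rose and 4 fell with the knockdown (median log2 change 0.17), and 7 fell without control replicate 3. With scramble ectosomes 20 rose and 1 fell, with a median of 2.90, and 20 were lower with knockdown than with scramble ectosomes, 0 higher. HSPA5, the chaperone BiP, was at 382, 369.6 and 275 CPM in control, 551, 579 and 580.3 CPM with knockdown and 4344, 4647 and 4664 CPM with scramble ectosomes, so it rose 1.67-fold (log2 change 0.74 with SE 0.12, adjusted p = 0.000337) with the knockdown and lay 7.98-fold (adjusted p = 3.65e-08) below scramble. MANF, a secreted factor of the same response, was at 33.1, 27.3 and 25.5 CPM in control, 52.6, 56.1 and 63.02 CPM with knockdown and 572, 634 and 644 CPM with scramble ectosomes, and PDIA3, a disulfide isomerase, at 191, 188 and 174 CPM in control, 274, 272 and 288 CPM with knockdown and 1534, 1648 and 1669 CPM with scramble ectosomes. The 3 groups did not overlap for any of these genes. XBP1, a transcription factor of the response and singled out after its values were seen, fell from 337, 300.3 and 169 to 124, 127 and 129 CPM, 2.12-fold (adjusted p = 0.000846), while it stood at 621, 636 and 634 CPM with scramble ectosomes. EDEM1, which directs misfolded proteins to degradation, fell 1.45-fold (adjusted p = 0.000614), with scramble ectosomes too (1.29-fold), and the chaperone CANX fell 1.34-fold (adjusted p = 0.00632). DNAJB9, a co-chaperone, was at 11.7, 13.5 and 12.4 CPM in control and 9.57, 11.1 and 10.8 CPM with knockdown ectosomes, a call (adjusted p = 0.0377) that ended without any 1 of the libraries other than control replicates 1 and 3 (up to 0.138). CANX and DNAJB9 were named after their values were seen. Of 19 genes of the ATF4 amino acid response 3 rose and 8 fell (4 and 12 without control replicate 3) with knockdown ectosomes, 16 rose and 0 fell with scramble, and all 19 were lower with the knockdown than with scramble ectosomes. ATF3 was at 3.995, 4.05 and 1.05 CPM in control, 11.6, 12.2 and 10.9 CPM with knockdown and 129, 128 and 132 CPM with scramble ectosomes. ATF3 rose 3.75-fold (adjusted p = 0.000298) against control.

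VLDLR, a lipoprotein receptor, fell from 132, 134 and 131 to 68.1, 65.03 and 68.7 CPM, 1.97-fold (adjusted p = 9.32e-07), SHMT2, which makes glycine from serine, from 509.6, 494 and 368 to 268, 289 and 302 CPM, 1.598-fold (adjusted p = 0.0005904), and SLC7A1, which imports cationic amino acids, 1.56-fold (adjusted p = 0.00131). Each of the 3 had its highest level with scramble ectosomes. The ATF4 element TGATGNAA occurred in the promoter entries of 3 of 16 members (18.8%) and in 3.14% of all entries.

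MAPK immediate-early and feedback genes, which follow growth factor signals, rose in 20 of 24 cases and fell in 2, FOSB and MYC, with a median of 1.73 against 2.75 with scramble ectosomes, and 18 were lower and 1 higher (2 without control replicate 2 or 3) with knockdown than with scramble ectosomes. The MAPK phosphatase gene DUSP6 was at 18.2, 16.9 and 12.8 CPM in control, 101, 98.6 and 112 CPM with knockdown and 211, 232 and 238 CPM with scramble ectosomes. DUSP6 rose 6.48-fold (adjusted p = 8.14e-08) against control and lay 2.19-fold (adjusted p = 1.27e-05) below scramble. DUSP5 was at 2.61, 2.24 and 1.32 CPM in control, 8.79, 8.67 and 9.91 CPM with knockdown and 89.3, 93.5 and 97.5 CPM with scramble ectosomes, and PHLDA1 at 5.59, 6.41 and 1.21 CPM in control, 75.04, 72.9 and 65.8 CPM with knockdown and 416, 431 and 436 CPM with scramble ectosomes. AREG, a ligand of the EGF receptor chosen after its values were seen, was at 0.1598, 0.0861 and 0 CPM in control, 0.834, 0.6095 and 0.524 CPM with knockdown and 45.2, 46.02 and 46.01 CPM with scramble ectosomes, so its rise over control was 7.44-fold (adjusted p = 0.000464), or 12.2-fold without control replicate 1, and it lay 68.9-fold (adjusted p = 1.64e-08) below scramble. For these 4 genes the knockdown level was between control and scramble, with no overlap. DUSP1 rose 9.65-fold (adjusted p = 2.63e-08), to 21.8, 21.9 and 20.7 CPM, and FOSB, an AP-1 subunit picked after its values were seen, fell 1.74-fold (adjusted p = 0.00215), to 1.23, 1.45 and 1.47 CPM.

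Of 15 STAT3 and SOCS pathway genes 9 rose and 3 fell, with a median log2 change of 1.22. SOCS3, the inhibitor that STAT3 induces, went from 12.2, 13 and 3.86 to 223, 235 and 232 CPM, 23.5-fold (adjusted p = 1.35e-06), or 18.1-fold without control replicate 3, against 162, 171 and 176 CPM with scramble ectosomes, and was named after its values were seen. BCL6, a transcriptional repressor, was at 10.6, 9.21 and 4.36 CPM in control, 33.7, 36.3 and 34.5 CPM with scramble and 132, 139 and 122 CPM with knockdown ectosomes. BCL6 rose 16.1-fold (adjusted p = 3.47e-07) against control and lay 3.75-fold (adjusted p = 1.87e-05) above scramble. IL10RA, the receptor chain for interleukin 10, rose 9.52-fold (adjusted p = 8.09e-08) and IL4R 4.09-fold (adjusted p = 5.69e-07), while IL6R fell from 427, 398 and 510.5 to 175, 173 and 161 CPM, 2.62-fold (adjusted p = 1.23e-06). The inhibitor gene CISH fell 1.95-fold (adjusted p = 0.000178) and the kinase gene JAK2 1.61-fold (adjusted p = 0.00866), both picked after their values were seen. Knockdown libraries did not overlap the controls for any of them. SOCS1, also of the list, was at 9.86, 7.79 and 0.994 CPM in control and 3.29, 5.02 and 5.40 CPM with knockdown ectosomes. Its change missed the threshold (adjusted p = 0.4999), but without control replicate 3 it fell 1.93-fold (adjusted p = 9.54e-05), the opposite direction from SOCS3. Matrix, protease and coagulation genes had a median of 2.73, with 16 of 21 higher and 3 lower, SERPINB2, F13A1 and TIMP3. MMP9, a gelatinase, rose from 6.71, 5.17 and 0.497 to 499.9, 542 and 625 CPM, 133-fold (adjusted p = 1.73e-06), or 94.2-fold without control replicate 3. THBS1, the adhesive glycoprotein thrombospondin, rose from 0.959, 1.51 and 0.497 to 109, 103 and 89.7 CPM, 98.01-fold (adjusted p = 8.67e-09). FN1, fibronectin, rose from 2.18, 2.75 and 2.15 to 39.3, 41.9 and 36.2 CPM, 16.4-fold (adjusted p = 1.93e-08). Against scramble ectosomes THBS1 was 3.53-fold (adjusted p = 3.15e-06) lower and FN1 4.83-fold (adjusted p = 3.09e-07) higher. TIMP3, an inhibitor of metalloproteinases, fell from 539, 497 and 135 to 34.1, 38.2 and 30.8 CPM, 11.3-fold (adjusted p = 4.58e-05), with control replicate 3 the lowest control, and 15.1-fold without it. VCAN, the proteoglycan versican, rose 18.4-fold (adjusted p = 8.01e-07), and MMP9 and TIMP3 were picked after their values were seen.

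Genes of proliferation and of the progenitor state fell. Among 14 tested progenitor and granule genes 12 fell and 0 rose, with a median of -2.43, and of -2.27 without control replicate 3, which lay 0.82 above the other controls. With scramble ectosomes the median was -3.30, and 9 were higher and 1 lower with knockdown than with scramble ectosomes. MYB, the transcription factor of immature blood cells, was at 456, 450.1 and 717 CPM in control, 92.2, 93.7 and 96.4 CPM with knockdown and 30.5, 31.8 and 31.6 CPM with scramble ectosomes, a fall of 5.75-fold (log2 change -2.52 with SE 0.16, adjusted p = 6.97e-07), and 4.82-fold without control replicate 3. AZU1, the granule protein azurocidin, was at 997, 876 and 1172 CPM in control, 231, 269 and 265 CPM with knockdown and 76.7, 73.6 and 87.9 CPM with scramble ectosomes, and ELANE, neutrophil elastase, at 460.5, 380.3 and 633 CPM in control, 76.5, 84.9 and 88.6 CPM with knockdown and 46.8, 47.5 and 55.5 CPM with scramble ectosomes. For these 3 genes the knockdown libraries lay between the other groups, without overlap. AZU1 fell 3.98-fold (adjusted p = 4.72e-07) and ELANE 5.89-fold (adjusted p = 8.09e-07) against control. LYZ, lysozyme, an abundant secretory protein of monocytes, fell from 136, 131 and 342 to 37.2, 35.2 and 47.3 CPM, 5.08-fold (adjusted p = 0.0001403), or 3.36-fold without control replicate 3, and MYC fell from 244, 218 and 329 to 90.3, 99.1 and 97.5 CPM, 2.75-fold (adjusted p = 7.53e-06), both singled out after their values were seen.

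All 22 mitosis and spindle genes fell with knockdown ectosomes, by a median log2 change of -0.67, whereas with scramble ectosomes 11 rose and 0 fell (19 rose without control replicate 3), and all 22 were lower with knockdown than with scramble ectosomes. CDC20, which activates the anaphase-promoting complex, was at 247, 231 and 279 CPM in control, 132, 145 and 152 CPM with knockdown and 689, 700.2 and 742 CPM with scramble ectosomes. CDC20 fell 1.76-fold (log2 change -0.82 with SE 0.09, adjusted p = 3.26e-05) against control and lay 4.96-fold (adjusted p = 3.57e-08) below scramble. The mitotic cyclin gene CCNB2 was at 42.4, 42.01 and 45.7 CPM in control, 24.1, 20.9 and 20.9 CPM with knockdown and 58.9, 61.5 and 60.2 CPM with scramble ectosomes. The groups did not overlap for either gene, with control in the middle. UBE2C, a ubiquitin-conjugating enzyme of mitosis, fell 1.697-fold (adjusted p = 2.84e-05) and the spindle assembly factor TPX2 1.62-fold (adjusted p = 3.89e-05). Of 26 genes of DNA replication and entry into S phase 19 fell and 3 rose with the knockdown (median -0.57), and 21 fell and 3 rose with scramble ectosomes (median -1.94). Here 20 were higher and 3 lower with knockdown than with scramble ectosomes, the opposite side from the mitosis list. MCM2, a subunit of the replicative helicase, was at 254, 226 and 265 CPM in control, 134, 143 and 156 CPM with knockdown and 33.8, 32.3 and 32.01 CPM with scramble ectosomes. MCM2 fell 1.72-fold (adjusted p = 2.88e-05) against control and lay 4.41-fold (adjusted p = 3.90e-08) above scramble. CDT1, which loads that helicase, fell 2.5-fold (adjusted p = 3.16e-06), and MCM6 fell 1.74-fold (adjusted p = 1.33e-05). Among the 3 that rose, the other being CCND3, the cyclin D gene CCND1 went from 22.9, 20.3 and 8.501 to 170.2, 166 and 158 CPM, 9.52-fold (adjusted p = 3.95e-06), and CDKN1A, the cell cycle inhibitor, picked after its values were seen, from 180.1, 167 and 53.6 to 542, 572 and 581 CPM, 4.22-fold (adjusted p = 0.000413), below its scramble level of 1223, 1240.0 and 1273 CPM.

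Every one of 35 cytosolic ribosomal protein genes fell with knockdown ectosomes, with a median log2 change of -0.84 (-0.75 without control replicate 3), and in all 35 each knockdown library lay below each control. With scramble ectosomes 24 fell and 1 rose, with a median of -0.34, and 31 were lower with knockdown than with scramble ectosomes. RPS2 was at 2436, 2071 and 2198 CPM in control, 1379, 1507 and 1556 CPM with scramble and 908, 1047 and 1053 CPM with knockdown ectosomes. RPS2 fell 2.23-fold (log2 change -1.16 with SE 0.10, adjusted p = 3.75e-06) against control. RPSA fell 2.04-fold (adjusted p = 3.45e-06), RPL19 1.98-fold (adjusted p = 4.80e-06) and RPLP0 1.91-fold (adjusted p = 5.02e-06). Ribosomal protein gene reads can be shared with their many processed pseudogenes. Of 13 mitochondrially encoded genes 2 rose, MT-ND4 by 1.39-fold (adjusted p = 0.000217) and MT-ND4L, which it overlaps, by 1.501-fold (adjusted p = 0.000588), and 6 rose without control replicate 3. When scaled by library totals alone, the medians of all lists kept their sign, and the median of all genes moved from -0.01 to -0.04.

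Changes that appeared with the knockdown were taken as those past the threshold against both control and scramble ectosomes in the same direction, while scramble against control was not past it or went the other way. The rule uses the values of these contrasts, so the values that follow describe the genes it chose and are no further test of them. The 8 largest rises of this kind were of LUM, RIPOR2, CXCL14, FCGR2B, NCF1, CD14, SERPINA1 and GPR82. CD14 (chromosome 5, 140631728 to 140633701, minus strand), the co-receptor for bacterial lipopolysaccharide, was at 7.57, 6.54 and 0.442 CPM in control, 6.23, 6.37 and 6.04 CPM with scramble and 83.8, 86.7 and 106 CPM with knockdown ectosomes. CD14 rose 18.7-fold (adjusted p = 4.91e-05) against control, or 13.1-fold without control replicate 3. NCF1, a cytosolic subunit of the phagocyte oxidase, was at 71.9, 63.7 and 21.4 CPM in control, 46.3, 61.97 and 56.6 CPM with scramble and 980.2, 1053 and 1101 CPM with knockdown ectosomes. NCF1 rose 19.9-fold (adjusted p = 4.83e-06) against control. NCF1 has near-identical pseudogene copies that may have exchanged reads with it. LUM, the keratan sulfate proteoglycan lumican, was at 0, 0.0861 and 0.497 CPM in control, 0.271, 0.579 and 0.527 CPM with scramble and 19.1, 15.9 and 22.3 CPM with knockdown ectosomes, a rise of 100.5-fold (adjusted p = 1.13e-06), or 355-fold without control replicate 3, in which case it also rose with scramble ectosomes (adjusted p = 0.00234). RIPOR2, a regulator of cell polarity, was at 0.852, 0.904 and 0.221 CPM in control, 0.496, 0.579 and 0.431 CPM with scramble and 53.7, 56.5 and 67.8 CPM with knockdown ectosomes. RIPOR2 rose 86.8-fold (adjusted p = 2.63e-08) against control. CXCL14, a chemokine of epithelia, was at 1.65, 1.89 and 0 CPM in control, 1.67, 1.896 and 2.44 CPM with scramble and 52.4, 57.3 and 65.4 CPM with knockdown ectosomes. CXCL14 rose 47.3-fold (adjusted p = 4.33e-06) against control. In each of these genes control and scramble libraries were low and all 3 knockdown libraries high, with no overlap. FCGR2B, the inhibitory IgG receptor, rose from 0.4795, 0.4735 and 0.0552 to 10.1, 9.096 and 11.6 CPM, 29.1-fold (adjusted p = 2.12e-06), or 21.2-fold without control replicate 3. GPR82, an orphan receptor, rose 16.02-fold (adjusted p = 7.67e-06). SERPINA1, which encodes alpha-1 antitrypsin and is expressed in monocytes as well as in liver, was at 1.71, 3.79 and 0.552 CPM in control, 2.98, 3.69 and 3.93 CPM with scramble and 34.6, 36.1 and 41.5 CPM with knockdown ectosomes. SERPINA1 rose 17.8-fold (adjusted p = 9.93e-06) against control, or 32.7-fold without control replicate 2, in which case it also rose with scramble ectosomes (adjusted p = 0.00197). Without control replicate 3 scramble ectosomes lowered RIPOR2 (adjusted p = 0.0434), FCGR2B (0.0182) and NCF1 (0.00743).

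The 8 largest falls that appeared were of CST7, NUCB2, KLF2, SLC6A9, ITPKA, PLD6, BMI1 and CAP2. CST7 (chromosome 20, 24949230 to 24959928, plus strand), an inhibitor of lysosomal cysteine proteases, was at 20.1, 17.5 and 5.796 CPM in control, 97.5, 96.04 and 99.97 CPM with scramble and 1.82, 3.09 and 2.097 CPM with knockdown ectosomes, so it rose 6.72-fold (adjusted p = 2.82e-05) with scramble and fell 6.19-fold (adjusted p = 0.0002699) with the knockdown. ITPKA, an inositol trisphosphate kinase, did likewise, at 19.2, 16.5 and 11.04 CPM in control, 31.6, 34.01 and 34.2 CPM with scramble and 3.44, 4.22 and 3.98 CPM with knockdown ectosomes, with a fall of 4.01-fold (adjusted p = 1.05e-05). NUCB2, a calcium-binding protein, was at 160.1, 162 and 276 CPM in control, 227, 237 and 226 CPM with scramble and 46.3, 41.7 and 44.9 CPM with knockdown ectosomes, a fall of 4.497-fold (adjusted p = 5.24e-06). All knockdown libraries of these genes lay below all others. BMI1, a Polycomb protein of stem cell renewal, whose locus overlaps a read-through gene on the same strand, was at 89.9, 96.5 and 115 CPM in control, 112, 113 and 114 CPM with scramble and 30.1, 30.8 and 33.3 CPM with knockdown ectosomes, a fall of 3.204-fold (adjusted p = 3.42e-07). KLF2, a transcription factor that keeps myeloid cells quiescent, was at 43.8, 27.4 and 11.1 CPM in control with control replicate 3 lowest, and at 4.42, 7.502 and 7.45 CPM with the knockdown, 4.25-fold (adjusted p = 0.00129) lower. The glycine carrier gene SLC6A9 fell 4.11-fold (adjusted p = 0.00152), PLD6 3.92-fold (adjusted p = 1.53e-05) and CAP2, an actin-binding protein, 3.196-fold (adjusted p = 0.000651). Without control replicate 3 the scramble group also differed from control for NUCB2 (adjusted p = 3.03e-07) and BMI1 (0.000664), which were higher, and for KLF2 (0.0002801), PLD6 (6.29e-06) and CAP2 (3.58e-05), which were lower. PLD6 was also lower with scramble ectosomes than in control in DESeq2 (adjusted p = 0.0478), with library-total scaling (0.0125) and with no filter (0.0365), against 0.0572 in the model used.

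**Figure D4:**
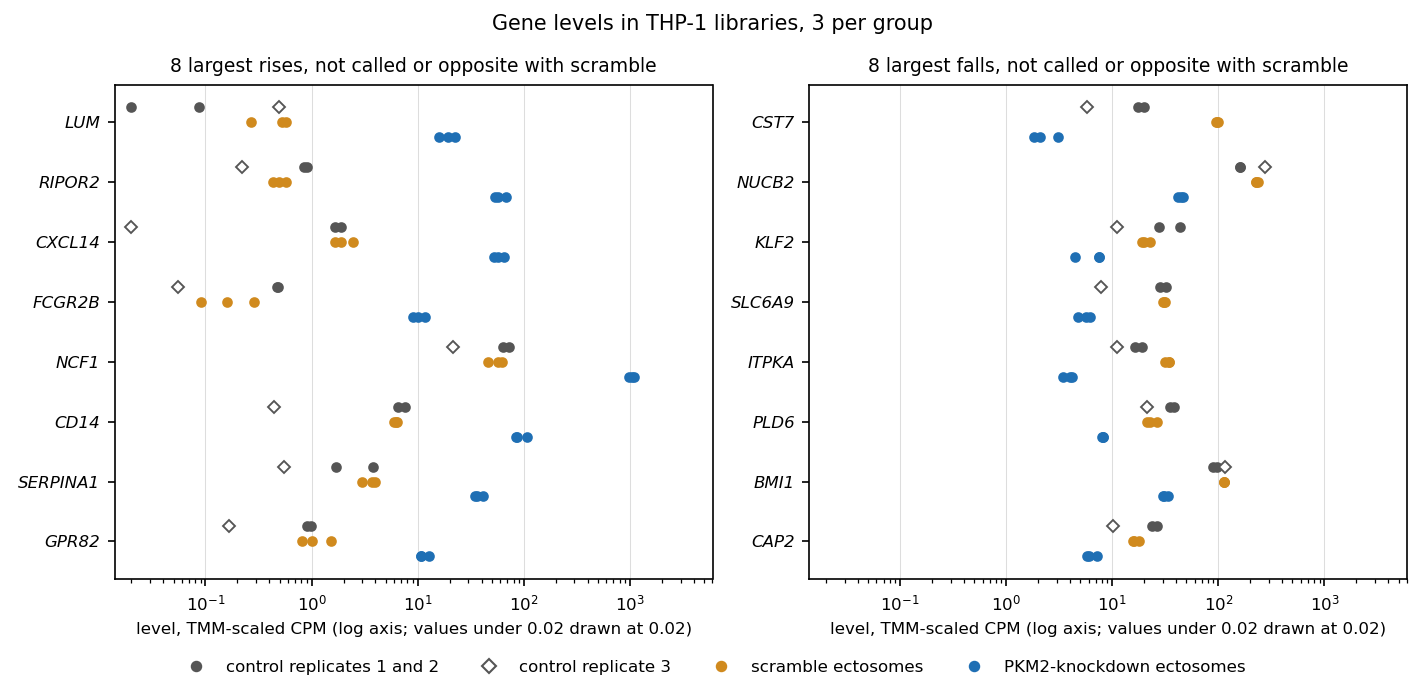
Levels in CPM (log axis) of the 8 largest rises and 8 largest falls that appeared with knockdown ectosomes, 1 point per library (values under 0.02 drawn at 0.02). For these genes scramble ectosomes against control were not past the threshold in the model used, or went in the opposite direction. Controls are in grey, control replicate 3 is an open diamond, scramble is in orange and knockdown in blue. Control replicates 1 and 2 and the scramble libraries lie near each other for CD14, NCF1 and CXCL14, with the knockdown libraries above, and for CST7 and ITPKA the 2 kinds of ectosomes lie on opposite sides of control.

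Changes that remained were those at least 2-fold in the same direction with both kinds of ectosomes. Their difference between the ectosomes was under 25% and not past the threshold, again a description of the contrasts that chose them. The spread behind that threshold includes the controls, so a gene with widely spread controls could miss it. The 8 largest rises were of IL1B, given above, HMGA2, TNFRSF9, EBI3, IL12B, DOCK4, PXDC1 and CD80. HMGA2, an architectural chromatin protein, was at 0.0533, 0.215 and 0.0552 CPM in control, 11.3, 12.8 and 11.8 CPM with scramble and 12.5, 9.71 and 10.3 CPM with knockdown ectosomes. HMGA2 rose 88.9-fold (adjusted p = 7.06e-08) against control, or 179-fold without control replicate 2. IL12B, a subunit shared by the interleukin 12 family, was at 0.266, 0.301 and 0.1104 CPM in control, 10.7, 8.95 and 10.8 CPM with scramble and 10.3, 10.8 and 11.4 CPM with knockdown ectosomes. IL12B rose 45.5-fold (adjusted p = 3.96e-08) against control. EBI3, another subunit of that family, was at 9.59, 6.801 and 0.331 CPM in control, 339, 366 and 372 CPM with scramble and 287, 307 and 347 CPM with knockdown ectosomes. EBI3 rose 55.6-fold (adjusted p = 1.75e-05) against control, and was lower with knockdown than with scramble ectosomes without control replicate 3 (adjusted p = 0.0242) and in a fit of the 2 ectosome groups alone (0.0179). The libraries of the 2 ectosome groups overlapped in these 3 genes, far above the controls. TNFRSF9, a costimulatory receptor of T cells, rose from 1.81, 1.12 and 0.0552 to 57.2, 57.3 and 63.5 CPM, 58.3-fold (adjusted p = 6.51e-07), or 90.9-fold without control replicate 1. DOCK4, an activator of small GTPases, rose from 1.44, 2.33 and 0.938 to 66.1, 66.4 and 60.5 CPM, 39.8-fold (adjusted p = 1.85e-08), and PXDC1, a PX domain protein, 36.1-fold (adjusted p = 1.12e-07).

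The 8 largest falls that remained were of CASC10, STAR, ONECUT2, BEX1, BCL2, AKAP7, IRX3 and GFI1. GFI1, a repressor needed for granulocyte precursors, was at 314, 280.0 and 299 CPM in control, 58.6, 54.3 and 54.7 CPM with scramble and 58.3, 60.6 and 58.4 CPM with knockdown ectosomes. GFI1 fell 5.04-fold (log2 change -2.33 with SE 0.08, adjusted p = 8.02e-09) against control. BCL2, the inhibitor of apoptosis, was at 219, 209 and 281 CPM in control, 33.9, 35.2 and 35.2 CPM with scramble and 40.6, 43.4 and 39.5 CPM with knockdown ectosomes, a fall of 5.74-fold (adjusted p = 6.20e-08). BCL2 was higher with knockdown than with scramble ectosomes without control replicate 3 (adjusted p = 0.00174), under library-total scaling (0.00333) and in a fit of the 2 ectosome groups alone (0.00135). ONECUT2, a homeobox transcription factor, was at 113, 116 and 139 CPM in control, 20.3, 21.6 and 20.9 CPM with scramble and 20.7, 19.4 and 16.9 CPM with knockdown ectosomes, a fall of 6.45-fold (adjusted p = 2.50e-08). In all 3 genes the controls lay far above both ectosome groups. IRX3, another homeobox factor, fell 5.33-fold (adjusted p = 9.19e-08), BEX1 5.91-fold (adjusted p = 9.40e-07), CASC10 7.68-fold (adjusted p = 1.85e-08), the mitochondrial sterol importer STAR 6.79-fold (adjusted p = 1.99e-06) and the kinase-anchoring protein AKAP7 5.497-fold (adjusted p = 1.32e-06). AKAP7 was higher with knockdown than with scramble ectosomes without scramble replicate 1 (adjusted p = 0.0389), and under library-total scaling CASC10 and GFI1 differed between the 2 kinds of ectosomes (adjusted p = 0.0166 and 0.00967).

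**Figure D5:**
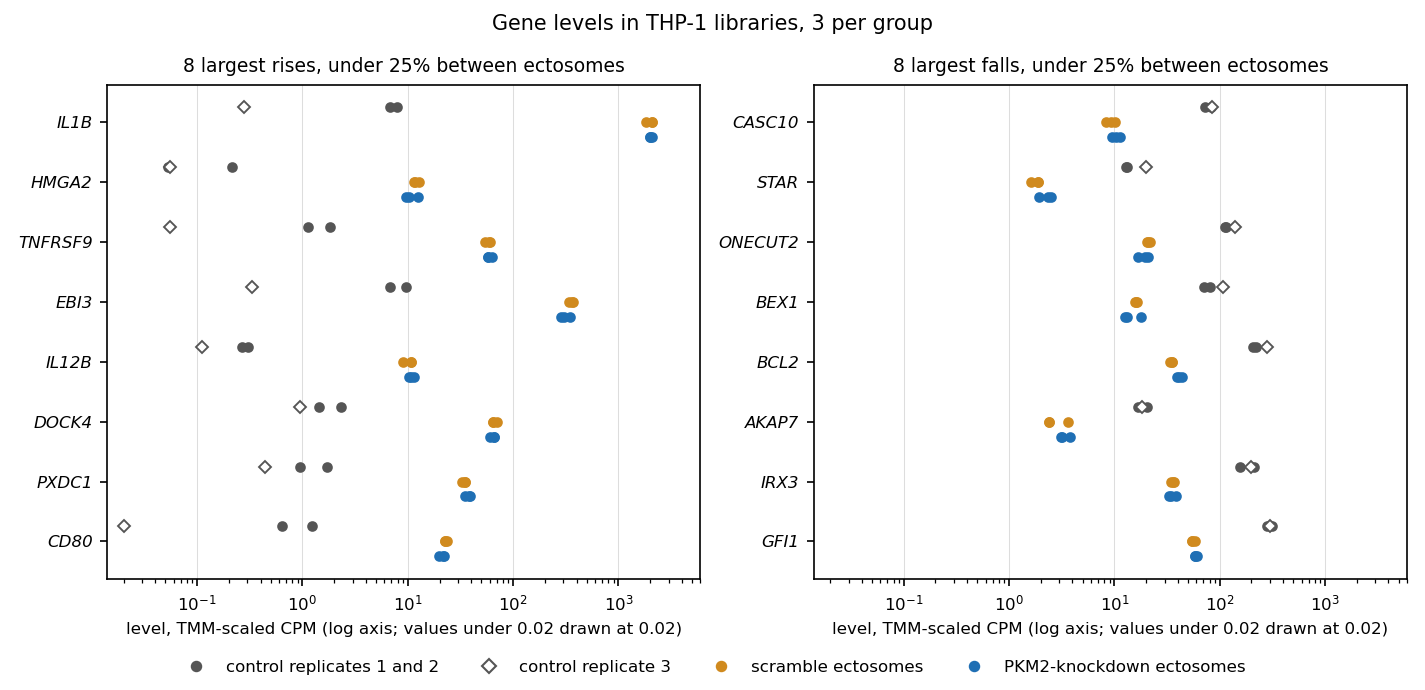
Levels in CPM (log axis) of the 8 largest rises and 8 largest falls shared by both kinds of ectosomes with under 25% between them, 1 point per library (values under 0.02 drawn at 0.02), with controls in grey, control replicate 3 as an open diamond, scramble in orange and knockdown in blue. Scramble and knockdown libraries lie together and apart from the controls for every gene, and control replicate 3 is the lowest control for IL1B and EBI3.

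Transcripts typical of the donor line were looked for because ectosomes carry RNA. Of 28 hepatocyte and Huh7 transcripts listed, 18 were in the table and 6 had enough reads for a test, 3 of them higher and 2 lower with the knockdown. Their summed level was 20.7, 23.2 and 18.99 CPM in control, 12.7, 13.1 and 13.7 CPM with scramble and 49.03, 49.3 and 56.3 CPM with knockdown ectosomes, most of it from SERPINA1 with the knockdown. The knockdown libraries were the highest, and those with scramble ectosomes the lowest. No untested transcript of the list exceeded 27 reads over the 3 knockdown libraries or 28 over the controls, and TTR and HNF4A had 0 reads in both groups. GPC3, a proteoglycan of hepatoma cells, fell from 13.6, 12.6 and 13.9 to 4.81, 4.88 and 4.56 CPM, 2.81-fold (adjusted p = 2.14e-05), and APOA2 rose 2.698-fold (adjusted p = 0.0032). APOA1, the main protein of high-density lipoprotein, fell from 0.639, 0.5596 and 0.828 to 0.147, 0.0938 and 0 CPM, 7.66-fold (adjusted p = 0.00205), or 12.2-fold without knockdown replicate 1. Of 12 lymphoid and erythroid markers 2 had enough reads, and of these NKG7 rose 2.52-fold (adjusted p = 4.82e-05). CD3E and HBA1, which define T cells and erythroid cells, had 0 reads in the controls. The summed level of the lymphoid and erythroid markers was 19.04 to 29.03 CPM in control and 49.1 to 52.3 CPM in knockdown libraries. The part of RNA carried in by the ectosomes, or of other cells, in any result was not tested.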

How the data were processed

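Total RNA of THP-1 cells was sequenced in 9 libraries, of which 6 were compared here and 3 set beside them. The deposited values are whole-number read counts per gene, made by the authors with HISAT2 2.0.5 and featureCounts 1.5.0-p3 on GRCh38, per the submitters' processing notes, and the strand setting is not given in the sources used here. Of 30000 rows, 355 repeat an earlier gene symbol and 24 have symbols turned into dates. The lowest row total is 4. Totals per library, 17744587 to 23864381 counts, limit the precision of genes with few reads, and intervals and floors cover counting error only. Names were matched to GENCODE 29 (99.92% found).

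Rows with enough counts by filterByExpr were tested with edgeR 4.0.16 in R 4.3.3 (TMM scaling, 1 model over the 3 groups, quasi-likelihood test, Benjamini-Hochberg adjustment over 18437 rows). The spread between replicates, estimated jointly over the 3 groups, was a biological coefficient of variation of 13.3% with 6 residual degrees of freedom. Pairs of controls with replicate 3 had a chi-square per degree of freedom of 43.6 and 40.1, and control replicates 1 and 2 had 4.69. Pairs within the ectosome groups had 2.44 to 6.50. Each p-value of this model, also between the 2 kinds of ectosomes, thus carries the spread of the controls. A fold change is the model's, and levels are TMM-scaled CPM. The procedure was tested on simulated data. Alternatives were DESeq2 1.42.0, other scaling, no filter, 6 libraries alone, a replicate block and leaving out each library.

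Named genes were PKM, STAT3 and CCL1, the 10 largest rises and falls, the 8 largest that appeared or remained in each direction, and up to 4 genes per list with the smallest p. Beyond PKM, STAT3 and CCL1, the genes with the largest changes had to be protein-coding with a unique symbol, a mean of 5 CPM, a 2-fold change past the threshold and groups without overlap. A further 54 genes were chosen after their values were seen, and SOCS1 was also named in this way. The members and the 26 lists were chosen with earlier results of these data known.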

Additional observations from a re-analysis of the deposited data

Results flagged for a closer look

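Each gene here was among those named and moved past the threshold in opposite directions against control with the 2 kinds of ectosomes, and the difference between knockdown and scramble ectosomes, given as a log2 fold change, was itself past the threshold in edgeR's quasi-likelihood test. Both changes share the same controls, control replicate 3 included.

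All of these genes other than FCGR2C, CIITA and CD74 were below control with knockdown and above it with scramble ectosomes, which was not so for every gene of their lists. In the mitosis list the differences between knockdown and scramble were -2.31 for CDC20, -1.45 for CCNB2, -1.49 for UBE2C and -1.20 for TPX2. In the unfolded protein response they were -2.31 for XBP1, -1.79 for CANX and -3.20 for DNAJB9, whose call against control ended under most alternatives. In the ATF4 list they were -1.33 for VLDLR, -1.40 for SHMT2 and -1.48 for SLC7A1. The rise of VLDLR with scramble ectosomes (1.28-fold, adjusted p = 0.000607) was 1.11-fold and lost its call under library-total scaling (0.0777).

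The same order held for CST7, with a difference of -5.38, the largest in size of those with lower levels, and for ITPKA, with -3.10. FOSB differed by -2.82, the oxygen sensor EGLN1 by -1.20, the lactate carrier SLC16A1 by -1.82 and CD55 by -1.86. LAMP1 differed by -0.84, though its rise with scramble ectosomes (1.16-fold, adjusted p = 0.0225 in edgeR) was lost under library-total scaling (1.01-fold, adjusted p = 0.891). Its call was also lost with no filter (0.104), in a fit of the 2 groups alone (0.0838) and without control replicate 2 or scramble replicate 2 or 3 (up to 0.0849).

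Higher than control with knockdown and lower with scramble ectosomes were FCGR2C, with a difference of 6.13 between them, CIITA, with 2.04, and CD74, with 0.89. The call of CIITA against control depended on single libraries, as given above, while the knockdown and scramble libraries did not overlap.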

How the results depend on the processing

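Over 15 alternatives, the count of genes higher with knockdown ectosomes than in control ranged from 4280 to 5542 and that of genes lower from 3958 to 5455. For the 201 genes chosen for naming, a few of them not reported here, 2975 results against control kept direction and side of the threshold, 31 lost and 7 gained a call, and none changed direction while called. Against scramble ectosomes 2867 kept, 59 lost and 82 gained it, with 32 of the gains in a fit of the 2 groups alone, 31 without control replicate 3 and 12 under library-total scaling. DESeq2 gave no adjusted p for SERPINB2, and 9 results had no value under an alternative. Scaling by library totals moved the share of calls that were higher from 50.26% to 47.18%. With the replicate block 4792 genes were higher and 4609 lower. Same-numbered libraries of different groups had correlations of their deviations from -0.134 to 0.0948. The labels do not say whether equal numbers share a culture or batch, and these correlations, from 3 libraries per group, cannot decide it. Reads limit CCL1, CSF2, IDO1, C1QC and IGFBP5, of which the controls held 0 to 2 reads. The causes of changes between settings were not tested.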
